A study of Mus musculus with 16 samples.

Results

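The response of coronal suture cells to thyroxine after 7 days was measured on 8 of the 16 arrays of a mouse series, 4 from thyroxine-treated cells and 4 from control cells, with both genotypes pooled. The arrays were chosen by their titles, and each thyroxine array was paired with the control array of the same culture, which gave 4 pairs. The coronal suture joins the frontal bone of the skull to the parietal bones and is a site of bone growth. Cells were isolated from 2 litters of C57BL6 mice, and the 4 cultures were Twist1+/- female, Twist1+/- male, wild-type female and wild-type male. Twist1 encodes a transcription factor needed in the embryonic mesenchyme of the head, and the Twist1+/- animals carry 1 intact copy of it. Treated cells received thyroxine in DMEM for 7 days, with a log10 of its molar concentration of -6, and control cells received DMEM as proliferation medium for the same time. Per the labels, 3 wells of a 6-well plate were set up for each medium. Sexes and genotypes were kept apart, with 1 culture for each. How many animals a culture came from was not found in the labels. The other 8 arrays came from the same 4 cultures after 3 days and are used here only where the days are compared.

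Thyroxine is a thyroid hormone with little activity of its own. Deiodinases inside target cells convert it to triiodothyronine, which binds nuclear receptors encoded by Thra and Thrb, and these receptors pair with retinoid X receptors on DNA and turn nearby genes up or down. Bone is a long known target tissue of the hormone, and an excess of thyroid hormone in early life is associated with premature closure of cranial sutures.

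Expression is given as the deposited log2 value of 1 probe set per gene, and a difference is thyroxine minus control within a culture, so that 1 unit is a 2-fold difference. For each symbol the probe set with the brightest mean over all 16 arrays was used. Of 22180 genes, the 13453 with a mean of at least 3.905 were tested, and 8727 dimmer genes were left out. Series of 4 values are in the order Twist1+/- female, Twist1+/- male, wild-type female and wild-type male. Array medians ran from 3.73 to 3.85 at 7 days.

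Twist1, the targeted gene, stood at 7.08, 7.22, 6.97 and 6.14 on thyroxine arrays and at 6.51, 7.55, 7.36 and 6.07 on control arrays. The cultures labelled Twist1+/- lay within or above the range of those labelled wild type at 6.07 to 7.36, so this probe set does not show the genotype, and the genotype labels are used as given. The labels do not say where the altered allele lies relative to the probe set.

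The arrays did not stand alike. In a principal component analysis of the 8 arrays, the first component held 44.0% of the variance and set the wild-type male culture apart, at 38.2 for its thyroxine array and 26.0 for its control array, while the other 6 arrays lay between -16.4 and -2.61. The second component held 20.3%, and its most distant array was the Twist1+/- male control at -28.9. Of the 8 arrays, 5 correlated best with the other array of their own culture. Across genes, the pair differences of the Twist1+/- female and male cultures correlated at 0.376, and the other 5 combinations of cultures lay between -0.208 and 0.063. These correlations are across genes, which are not independent replicates, and both values of a combination come from the same platform. The median pair difference over all genes tested was -0.05, -0.07, 0.00 and 0.02.

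The labelled cell type was set against marker genes. All 13 mesenchymal markers measured, among them Col1a1 with a mean of 12.3 on thyroxine arrays and 12.3 on control arrays, were above the threshold of 3.905. So were all 24 macrophage markers measured. Csf1r, the receptor for macrophage colony-stimulating factor, averaged 10.2 on thyroxine arrays and 10.3 on control arrays, and Lyz2, the lysozyme of myeloid cells, averaged 12.8 on both. Of 16 measured osteoblast genes, 8 were above the threshold, as were 7 of 11 osteoclast genes and 11 of 16 markers of endothelial, epithelial, neural, lymphoid and muscle cells. The cultures therefore carried RNA of both mesenchymal and macrophage marker genes in either medium. The summed level of the macrophage markers, as the log2 of their summed linear values, ran from 14.7 to 14.8 on thyroxine arrays and from 14.7 to 15.0 on control arrays, with pair differences of -0.06, 0.05, -0.03 and -0.25. For the mesenchymal markers the sums were 14.2 to 14.8 on thyroxine arrays and 14.3 to 14.7 on control arrays, lowest in the wild-type male culture in both media. In such bulk samples, fewer cells of a type and less RNA per cell cannot be told apart.

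No gene passed the test of the pooled response. At 7 days, limma called 0 of 13453 genes at an adjusted p under 0.05 (0.0%), with a smallest adjusted p of 0.0642 for Klf9 and Heg1. An unadjusted p under 0.05 was reached by 786 genes (5.84%), of which 271 were higher (2.01%) and 515 lower (3.83%) with thyroxine. With each array centred on its median, the split was 388 higher and 373 lower, so the excess of lower genes depends on the scaling. The sign of the difference was the same in all 4 pairs for 1744 genes (13.0%), with 679 higher (5.05%) and 1065 lower (7.92%). The thyroxine and control arrays did not overlap for 171 genes (1.27%), of which 80 were higher (0.595%) and 91 lower (0.676%). Other settings called up to 21 genes: 2 with robust variance moderation, which were Heg1 and Klf9, and 21 in a fit of all 16 arrays. Since each genotype and sex had 1 culture, the p-values rest on how far the 4 pairs differ from each other, which may be technical. The genes below are therefore given as values: for each direction, the 12 genes with the smallest p among those with the same sign in all 4 pairs.

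Among the 12 leading higher genes were the transcription factor gene Klf9, the binding protein gene Igfbp4, the protease gene Htra1, the clearance receptor gene Npr3 and the water channel gene Aqp1. Their mean differences ran from 0.46 to 0.85. The 12 leading lower genes held the cytokine gene Il6, the macrophage receptor gene Mrc1, the immune membrane protein gene Ms4a6b and Stat4, with mean differences from -0.75 to -0.42. These genes were chosen by their p at 7 days, so their size at that day is a description.

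Because thyroid hormone receptors bind DNA at the half-site AGGTCA, classically as a direct repeat with 4 bases between the copies, the 250 bases before the start site were searched in RefSeq promoters (GRCm38.p6). They are shown for both genes with the smallest p, Klf9 and Heg1, and for both leading genes that held a half-site, Afap1l2 and Stat4. Sequences run 5' to 3' on the gene's strand, and capitals mark AGGTCA on the strand shown.
Klf9 (chr19:23140976-23141225, + strand): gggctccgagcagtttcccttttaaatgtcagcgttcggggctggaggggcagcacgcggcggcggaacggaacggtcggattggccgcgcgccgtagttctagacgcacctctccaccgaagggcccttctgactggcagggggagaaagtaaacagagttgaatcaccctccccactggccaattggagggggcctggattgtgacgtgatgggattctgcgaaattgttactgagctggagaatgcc
Heg1 (chr16:33684216-33684465, + strand): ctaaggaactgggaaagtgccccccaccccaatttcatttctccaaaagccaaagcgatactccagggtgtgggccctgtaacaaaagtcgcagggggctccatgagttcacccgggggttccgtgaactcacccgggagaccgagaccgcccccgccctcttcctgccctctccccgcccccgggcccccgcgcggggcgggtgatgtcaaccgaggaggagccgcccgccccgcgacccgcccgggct
Afap1l2 (chr19:57008576-57008825, - strand): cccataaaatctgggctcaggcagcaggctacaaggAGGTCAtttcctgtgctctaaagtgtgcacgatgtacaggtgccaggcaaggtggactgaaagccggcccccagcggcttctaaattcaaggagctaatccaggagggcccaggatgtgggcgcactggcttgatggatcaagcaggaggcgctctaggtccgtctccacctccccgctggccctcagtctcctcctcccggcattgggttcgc
Stat4 (chr1:51986898-51987147, + strand): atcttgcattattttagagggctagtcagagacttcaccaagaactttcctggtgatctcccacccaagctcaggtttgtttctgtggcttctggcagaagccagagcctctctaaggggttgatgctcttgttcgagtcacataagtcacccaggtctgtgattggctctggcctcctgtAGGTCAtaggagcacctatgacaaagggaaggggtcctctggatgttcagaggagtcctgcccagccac
Stat4 had a further promoter window with no half-site. The half-site began 214 bases before the start in Afap1l2 and 69 bases before it in Stat4. Promoters were found for 20 of the 24 leading genes, with 23 windows in all. On either strand, AGGTCA was in 2 of these 23 windows (8.7%), against 4607 of all 32851 windows of the same length (14%). The direct repeat of AGGTCA on either strand with any 4 bases between the copies was in 0 of the 23 and in 5 of all windows (0.0152%). A match is a description of letters, and regions outside these windows were not searched.

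Klf9 encodes a Krueppel-like zinc finger transcription factor that is a known thyroid hormone target in the rodent and frog brain. Its level was 8.24, 8.20, 8.30 and 8.30 on thyroxine arrays, against 7.65, 7.34, 7.78 and 7.46 on control arrays. The 4 thyroxine arrays lay between 8.20 and 8.30, all above the control arrays. The pair differences were 0.59, 0.86, 0.52 and 0.84, with a mean of 0.70 ± 0.09 (limma SE, 4 pairs), a 1.63-fold higher level. The limma adjusted p was 0.0642, which misses the threshold.

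Heg1 encodes a transmembrane protein of endothelial cell junctions that is needed for heart and vessel development in mouse and zebrafish. It stood at 7.92, 8.02, 7.83 and 7.54 with thyroxine, against 7.31, 7.32, 7.23 and 6.80 in control medium. The groups did not overlap, and the wild-type male culture was the lowest in both media. Differences of 0.61, 0.70, 0.60 and 0.74 gave a mean of 0.66 ± 0.08 (limma SE, 4 pairs), or 1.58-fold, with the same adjusted p of 0.0642. A second, dimmer Heg1 probe set with a mean level of 3.89 had differences of -0.22, -0.04, 0.09 and -0.22. It lies just below the threshold of 3.905, among dim probe sets whose differences are compressed. The Heg1 difference is therefore that of 1 of 2 probe sets.

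**Figure D1:**
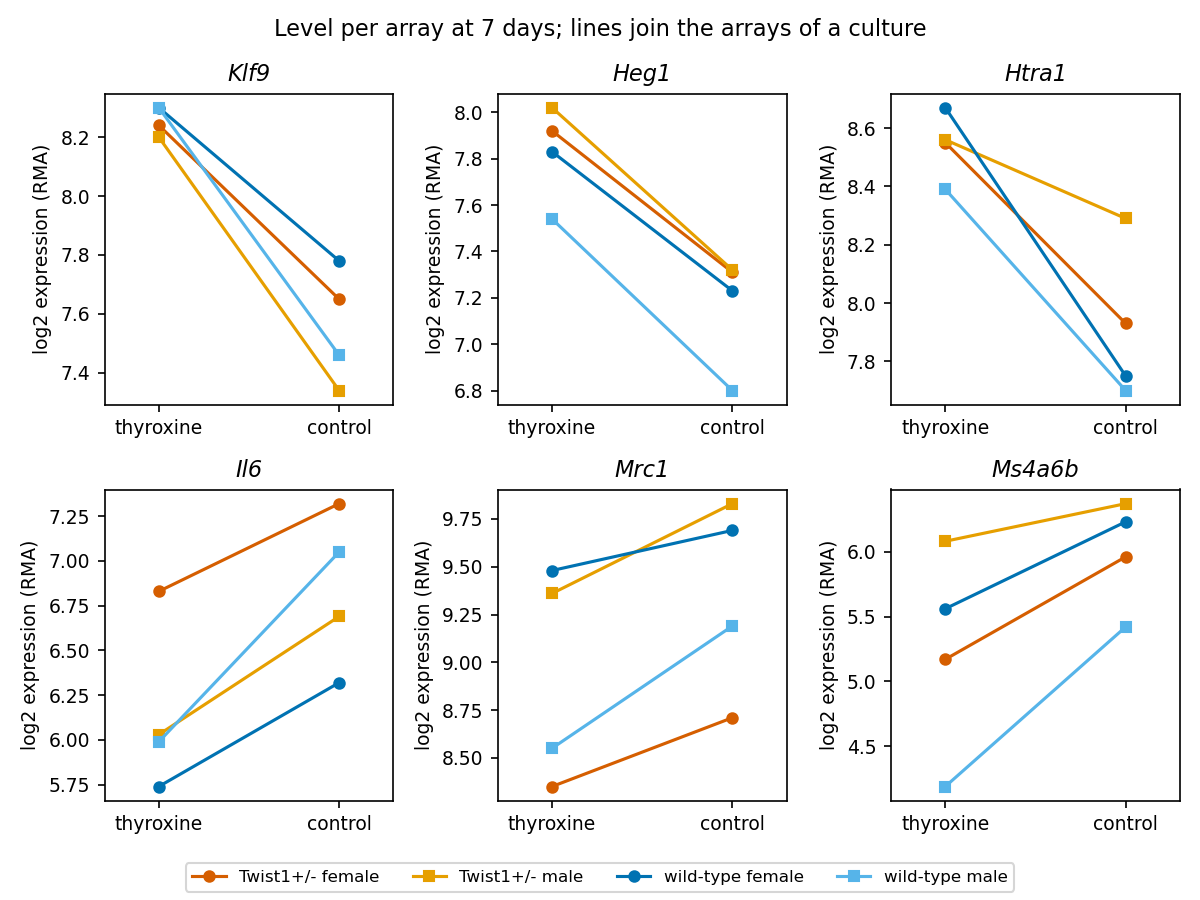
Level of 6 of the leading genes on each array at 7 days, as log2 expression, with thyroxine on the left and control on the right of each panel and a line joining both arrays of a culture. Klf9, Heg1 and Htra1 are higher with thyroxine in all 4 cultures, and Il6, Mrc1 and Ms4a6b are lower in all 4, while only the groups of the first 3 genes do not overlap.

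Secreted proteins are encoded by Htra1, Igfbp4 and Epdr1. Htra1 encodes a secreted serine protease that cleaves matrix proteins. Its level was 8.55, 8.56, 8.67 and 8.39 with thyroxine, against 7.93, 8.29, 7.75 and 7.70 without it. All thyroxine arrays were above all control arrays, and the mean difference was 0.63 ± 0.10 (limma adjusted p 0.235). Igfbp4, whose product binds insulin-like growth factors, had 10.89, 11.02, 11.19 and 9.62 on thyroxine arrays, against 10.22, 10.24, 10.87 and 9.41 on control arrays. It was higher in each culture, by 0.67, 0.78, 0.32 and 0.21, but the groups overlapped because the wild-type male culture was low in both media. Its mean difference was 0.50 ± 0.10 (limma adjusted p 0.469). Epdr1, which encodes a secreted ependymin-related protein, differed by 0.69, 0.58, 0.37 and 0.18. Both Igfbp4 and Epdr1 had larger differences in the Twist1+/- pairs than in the wild-type pairs, but the genotype test did not call either gene.

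Of the genes for adaptor and membrane proteins, Afap1l2, whose product is an adaptor of Src and phosphoinositide 3-kinase signalling, had a mean difference of 0.85 ± 0.16, a 1.80-fold higher level (limma adjusted p 0.340). Its levels were 5.66, 5.55, 5.84 and 5.38 with thyroxine, against 4.42, 5.01, 4.68 and 4.93 in control medium. The groups did not overlap, and the female cultures had the larger differences, 1.24 and 1.16, against 0.54 and 0.45 in the male cultures, a contrast that was not tested. Npr3, the clearance receptor of natriuretic peptides, differed by 0.31, 0.39, 0.44 and 0.83. Aqp1, a water channel, differed by 0.60, 0.17, 0.63 and 0.88. Both genes overlapped between media, with the lowest Aqp1 thyroxine array, 6.24 in Twist1+/- male cells, below the highest control array, 6.37 in Twist1+/- female cells. Mxra7 encodes a membrane protein named for its association with matrix remodelling, and its groups did not overlap, with 7.69, 8.04, 8.10 and 7.60 on thyroxine arrays and 7.33, 7.55, 7.54 and 6.82 on control arrays. It was higher by 0.55 ± 0.09 on average (limma adjusted p 0.235).

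The remaining 3 higher genes were Stmn2, a microtubule regulator best known from neurons, Cisd1, an iron-sulfur protein of the outer mitochondrial membrane, and Tlcd2, a membrane protein with a TLC domain. Stmn2 varied far more between cultures than between media. It stood at 8.69, 7.22, 7.01 and 8.74 with thyroxine and at 7.80, 6.85, 6.59 and 7.93 without it, so that the groups overlapped although each culture was higher, by 0.37 to 0.89. Cisd1 differed by 0.33, 0.76, 0.37 and 0.53 and Tlcd2 by 0.34, 0.44, 0.65 and 0.56, both with a mean of 0.50. The adjusted p of the 10 higher genes after Heg1 and Klf9 ran from 0.235 to 0.484.

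**Figure D2:**
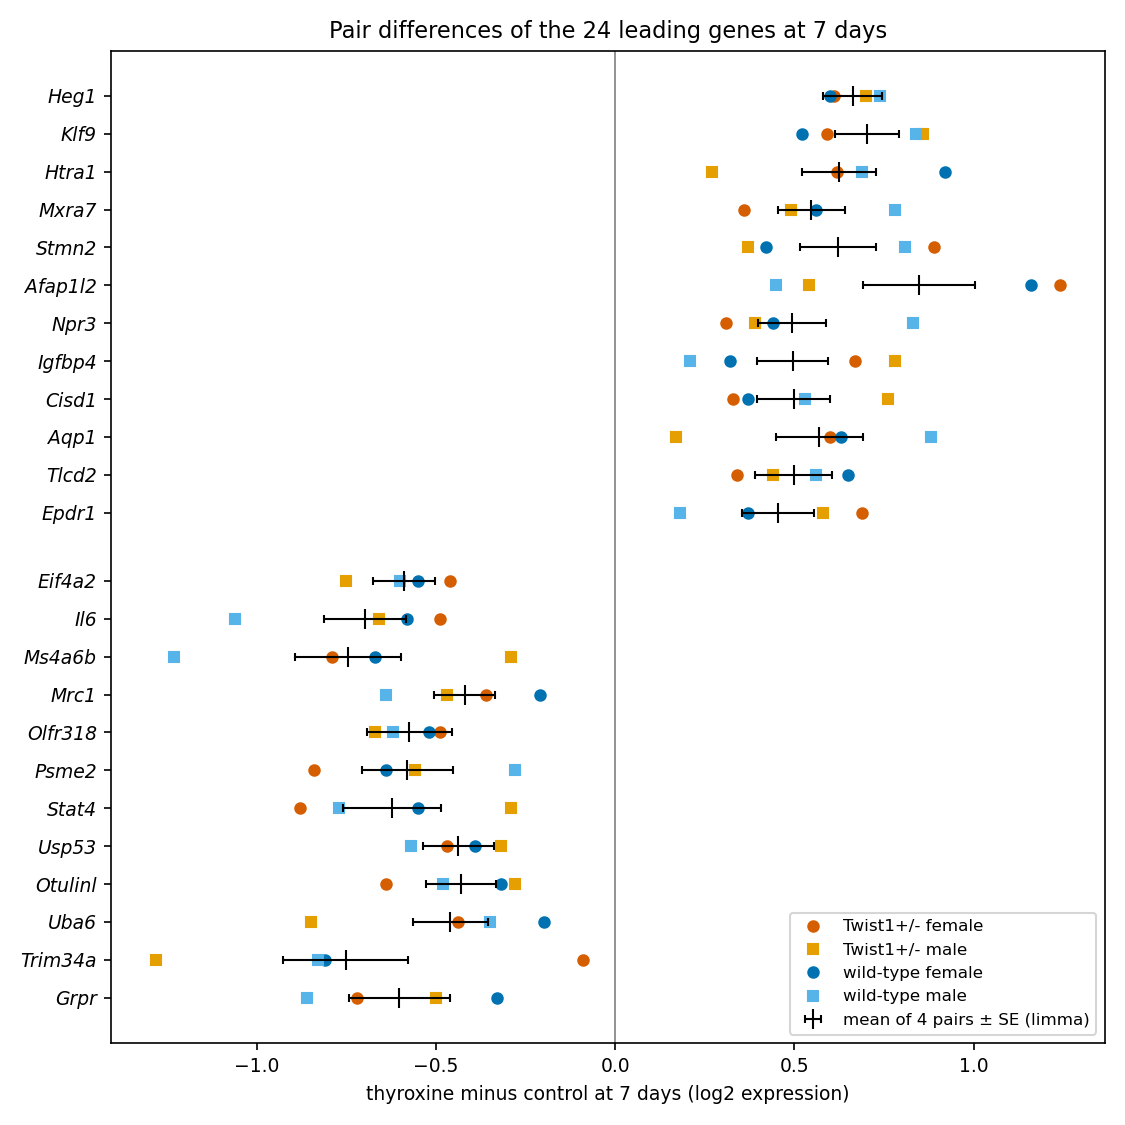
Thyroxine minus control differences of the 24 leading genes at 7 days in log2 units, with a point for each culture and a black bar for the mean and limma standard error of the 4 pairs. All points of the 12 higher genes lie right of 0 and all points of the 12 lower genes left of it, as the choice of the genes required, and Heg1, with 0.60 to 0.74, is among the genes with the narrowest spread.

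The lower genes included 3 that are known from cytokine signalling or macrophages, Il6, Mrc1 and Ms4a6b. Il6 encodes interleukin-6, a cytokine made by stromal cells and macrophages. It stood at 6.83, 6.03, 5.74 and 5.99 with thyroxine, against 7.32, 6.69, 6.32 and 7.05 in control medium. Every culture was lower, most of all the wild-type male culture at -1.06, while the groups overlapped because the Twist1+/- female culture was high in both media. The mean difference was -0.70 ± 0.11, a level 0.617 times that of control (limma adjusted p 0.235). Mrc1 encodes the macrophage mannose receptor, and had 8.35, 9.36, 9.48 and 8.55 on thyroxine arrays, against 8.71, 9.83, 9.69 and 9.19 on control arrays. Its differences of -0.36, -0.47, -0.21 and -0.64 were smaller than the spread of levels between cultures. Ms4a6b, a 4-span membrane protein gene of immune cells, stood at 5.17, 6.08, 5.56 and 4.19 with thyroxine and at 5.96, 6.37, 6.23 and 5.42 without it. The wild-type male culture was lowest in both media and had the largest difference, -1.23. The summed level of the macrophage markers was lower by 0.25 in that culture too, and its part in these 3 genes was not tested. Without the wild-type male pair the remaining Il6 differences were -0.49, -0.66 and -0.58, those of Mrc1 -0.36, -0.47 and -0.21, and those of Ms4a6b -0.79, -0.29 and -0.67.

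Stat4 encodes a transcription factor that carries interleukin-12 signals in lymphocytes and myeloid cells. Its level was 4.12, 4.93, 4.02 and 4.53 with thyroxine, against 5.0, 5.22, 4.57 and 5.30 without it, and the mean difference was -0.62 ± 0.14 (limma adjusted p 0.484). Psme2, a subunit of the interferon-inducible proteasome activator, stood at 5.02, 4.86, 5.10 and 5.21 on thyroxine arrays, against 5.86, 5.42, 5.74 and 5.49 on control arrays. The Psme2 groups did not overlap, whereas those of Stat4 did. Trim34a, of the interferon-inducible TRIM family, differed by -0.09, -1.28, -0.81 and -0.83, with almost no difference in the Twist1+/- female culture. A second Trim34a probe set with a mean level of 1.61, below the threshold, was higher by 0.18 on average.

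Uba6, Usp53 and Otulinl belong to the ubiquitin system. Uba6, a ubiquitin-activating enzyme gene, differed by -0.44, -0.85, -0.20 and -0.35. Usp53, a gene of the ubiquitin-specific protease family, differed by -0.47, -0.32, -0.39 and -0.57. Otulinl, a relative of the deubiquitinase gene Otulin, had 6.54, 7.02, 6.75 and 6.58 with thyroxine and 7.18, 7.30, 7.07 and 7.06 without it, and these groups did not overlap. Eif4a2, an RNA helicase of translation initiation, had the smallest p of the lower genes, with 7.73, 7.82, 7.22 and 6.60 on thyroxine arrays, against 8.19, 8.57, 7.77 and 7.20 on control arrays. Its mean difference was -0.59 ± 0.09 (limma adjusted p 0.137). The 2 other probe sets of Eif4a2 had mean differences of 0.11 and -0.03, so that its difference is that of 1 of 3 probe sets. Olfr318, an odorant receptor gene, and Grpr, the receptor of gastrin-releasing peptide, were dim. Olfr318 had 4.57, 4.34, 4.68 and 4.86 with thyroxine against 5.06, 5.01, 5.20 and 5.48 without it, and Grpr averaged 3.73 on thyroxine arrays and 4.33 on control arrays. Neither gene's groups overlapped. Over the 24 leading genes, 9 had groups that did not overlap, 5 higher and 4 lower, against 1.27% of all genes tested. The choice by p and sign on these same arrays favours such genes, so this count is a description.

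Known thyroid hormone target genes lay on both sides of 0. Of 15 members tested from a list of 18, 7 were higher and 8 lower on average, and the median was -0.04, against -0.03 over all genes. Besides Klf9, Hr was higher in all 4 pairs. It encodes a nuclear corepressor first known from hairless mice and is a thyroid hormone target in rat brain, and it differed by 0.23, 0.62, 0.55 and 0.21, with a mean of 0.40 ± 0.13 (limma adjusted p 0.818). Hr was dim, with a mean level of 4.78 on thyroxine arrays and 4.37 on control arrays, and its groups overlapped. Dio1, a deiodinase gene that thyroid hormone raises in mouse liver, was lower in all 4 pairs, by -0.75, -0.26, -0.27 and -0.35, with a mean level of 4.09 on thyroxine arrays and 4.50 on control arrays. Its groups did not overlap, and its adjusted p was 0.818. Hif1a, which encodes an oxygen-regulated transcription factor, averaged -0.21, but its second probe set averaged 0.28. The receptors themselves, named here outside the rule for their role, differed by -0.08, 0.25, -0.16 and 0.11 for Thra and by 0.25, -0.43, 0.15 and 0.35 for Thrb, with means of 0.03 ± 0.11 and 0.08 ± 0.15. Of 16 genes of hormone handling, which take up, convert or respond to the hormone, 12 were higher and 4 lower, with a median of 0.05. Over all genes tested, 41.0% were higher. Dio2, the deiodinase that makes triiodothyronine from thyroxine in tissues, differed by 0.35, -0.05, -0.03 and 0.45. Only Dio1 of the 16 had an unadjusted p under 0.05.

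Pathways of the suture were examined next. Over all genes tested, 41.0% were higher and 58.3% lower on average, and 5.84% had an unadjusted p under 0.05 in limma. Among 31 WNT genes tested, 15 were higher and 16 lower, with a median of -0.01. The secreted WNT inhibitors Sfrp4 and Sfrp1 were the 2 members with an unadjusted p under 0.05, both higher in all 4 pairs. A share of 2 in 31 is near that of all genes. Sfrp4 differed by 1.10, 0.77, 0.77 and 0.12, with a mean of 0.69 ± 0.16, and Sfrp1 by 0.40, 0.66, 0.46 and 0.13, with a mean of 0.41 ± 0.10 (limma adjusted p 0.508 for each). The wild-type male culture had the smallest difference for both. Fam180a, which like Sfrp4 had been singled out in earlier results of these arrays, differed by 0.78, 0.81, 0.44 and 0.05 (adjusted p 0.767). Of 15 insulin-like growth factor genes, 8 were higher and 7 lower. Besides Igfbp4, the members with an unadjusted p under 0.05 were Pappa2, a protease gene that releases growth factor from its binding proteins, at 0.36 ± 0.14, and Igfbp3, another binding protein gene, at 0.29 ± 0.12.

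Of 29 genes of BMP and TGF-beta signalling, 13 were higher and 16 lower, with a median of -0.01. Bmp4, an osteogenic ligand gene, differed by 0.41, 0.59, 0.33 and 0.25, with a mean of 0.40 ± 0.10 (limma adjusted p 0.714). Grem1, a secreted BMP antagonist gene, had an average of -0.31 ± 0.10 (adjusted p 0.799), lower in all 4 pairs, and Gdf10, a ligand gene of this family, averaged 0.32 ± 0.13. In the list of 16 FGF genes, 9 were higher and 7 lower, and Fgfrl1, a receptor without a kinase domain, was the member with an unadjusted p under 0.05, at 0.18, 0.24, 0.26 and 0.25. Among 17 suture patterning genes, 9 were higher and 8 lower. Foxc1, a forkhead factor gene of the skull vault, averaged 0.26 ± 0.10, and Twist2 averaged 0.26 with pair differences of 0.83, 0.40, -0.15 and -0.05. Twist1, added for its role in the genotype, differed by 0.57, -0.33, -0.39 and 0.07, with a mean of -0.02 ± 0.15. None of 8 osteoblast genes tested had an unadjusted p under 0.05 in limma, with differences from -0.17 to 0.16. Alpl, the alkaline phosphatase of mineralization, averaged -0.16, but its second probe set, with a mean level of 4.37, averaged 0.10. Dlx5, a homeobox factor gene of osteoblasts, averaged 0.16.

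**Figure D3:**
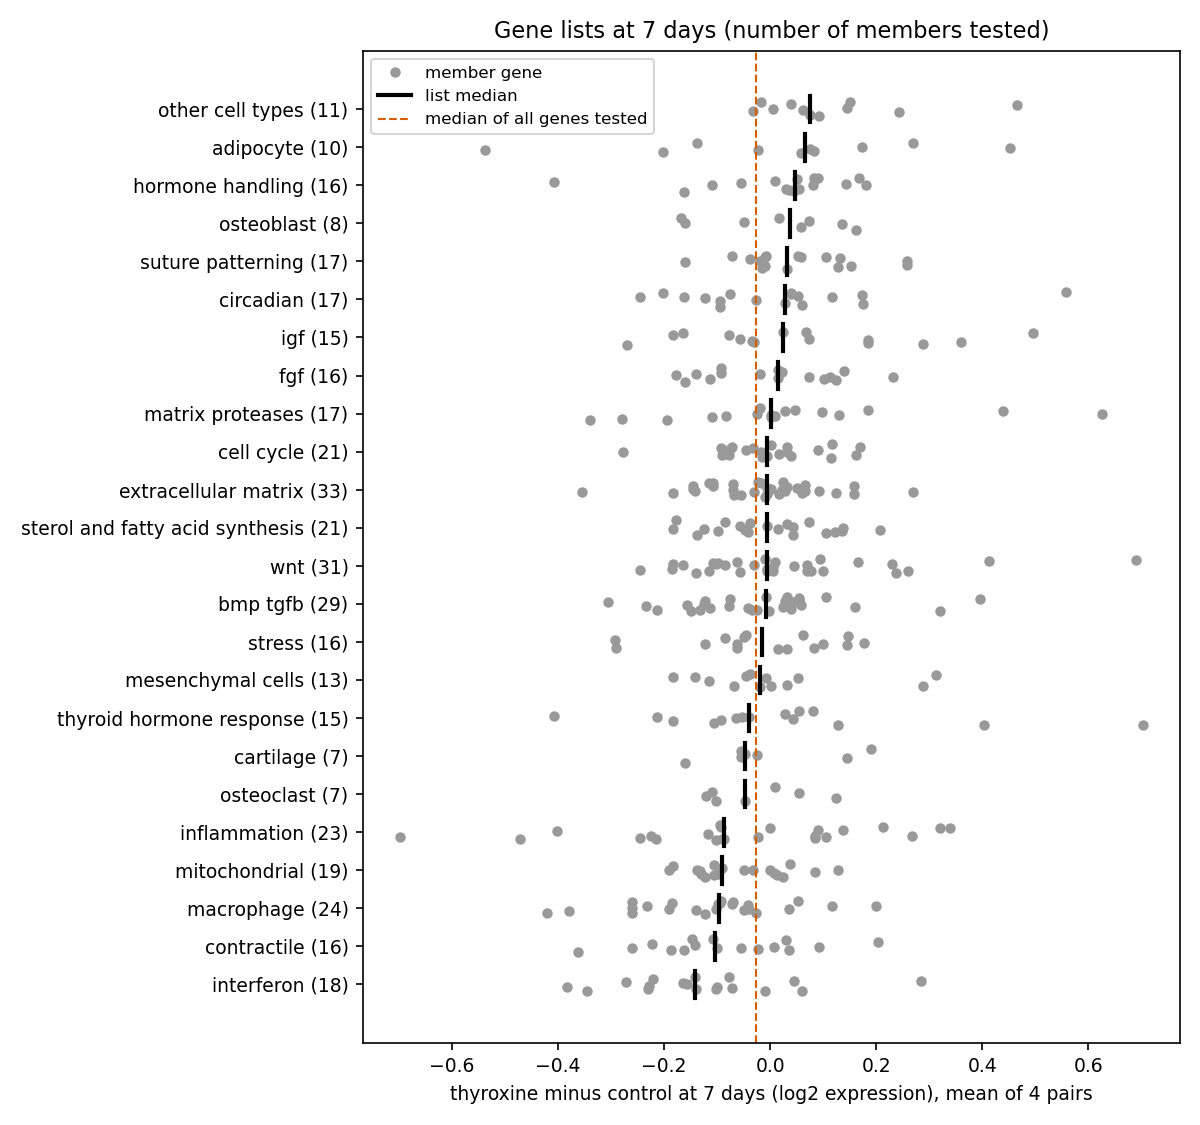
Mean thyroxine minus control difference at 7 days in log2 units for each tested member of 24 gene lists, with the list median as a black bar and the median of all 13453 genes, -0.03, as a dashed line; the number of members tested is in brackets. List medians lie between -0.14 and 0.08, with interferon genes lowest, and single members such as Klf9 in the thyroid hormone response list and Il6 in the inflammation list lie far from their list's median.

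Immune genes were examined in 3 lists. Of 24 macrophage genes, 20 were lower and 4 higher on average, with a median of -0.10, against 58.3% lower and a median of -0.03 over all genes. The members lower in all 4 pairs were 5, against 7.92% of all genes. Those with an unadjusted p under 0.05 were 6, all lower, against 3.83% of all genes: Mrc1, Siglec1, Adgre1, Tlr8, Fcgr1 and Ptprc. Siglec1, a sialic acid-binding receptor of macrophages, differed by -0.31, -0.09, -0.43 and -0.69, and Adgre1, which encodes the F4/80 antigen, by -0.41, -0.33, -0.06 and -0.24. Abundant macrophage genes differed less: Cd68 averaged -0.10, Csf1r -0.07 and Lyz2 -0.03. By culture, the list median was -0.16 and 0.06 in Twist1+/- female and male cells and -0.05 and -0.30 in wild-type female and male cells, so that 1 culture went the other way.

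Among 18 interferon-induced genes, 15 were lower and 3 higher, with a median of -0.14, against 58.3% lower and a median of -0.03 over all genes. By culture the median was 0.02 and 0.19 in the Twist1+/- pairs and -0.07 and -0.47 in the wild-type pairs, above 0 in both Twist1+/- pairs and below 0 in both wild-type pairs. Ifit1, an RNA-binding antiviral protein gene, differed by 0.11, 0.35, -0.06 and -1.49. Cmpk2, a nucleotide kinase gene induced by interferon, was the member lower in all 4 pairs, by -0.35, -0.17, -0.41 and -0.45 (limma adjusted p 0.806), and Usp18, which removes the ISG15 tag from proteins, averaged -0.38 ± 0.16. Without the wild-type male pair, the other 3 Usp18 differences were -0.10, 0.02 and -0.30. Of 23 inflammation genes, 9 were higher and 13 lower, a share lower near the 58.3% of all genes, with a median of -0.09. Besides Il6, Cxcl5, a neutrophil chemokine gene, differed by -0.22, -0.30, -0.25 and -1.12, and Ptgs2, the inducible cyclooxygenase, by -0.42, -0.91, -0.36 and 0.08. Ptges, which makes prostaglandin E2 from the product of that enzyme, lay the other way: it stood higher by 0.44, 0.30, 0.16 and 0.46, with groups that did not overlap and a mean of 0.34 ± 0.10 (adjusted p 0.763).

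Matrix, metabolic and growth genes showed no common direction. Of 33 extracellular matrix genes, 15 were higher and 18 lower, with a median of -0.01. Eln, which encodes elastin, differed by -0.66, -0.43, -0.24 and -0.09, while Loxl1, which crosslinks elastin, differed by 0.45, 0.51, 0.18 and -0.06. Among 17 matrix protease genes, 10 were higher and 7 lower. Mmp12, the macrophage elastase, averaged 0.44 ± 0.13 and was higher in all 4 pairs, and Plau, the urokinase plasminogen activator, averaged -0.34 ± 0.10 and was lower in all 4. Of 10 adipocyte genes, Lpl, the lipoprotein lipase, was higher in all 4 pairs, with a mean of 0.45 ± 0.10 (limma adjusted p 0.508). A second, dimmer Lpl probe set averaged 0.79 with uneven differences of 1.22, 1.99, 0.27 and -0.33, so it was lower in the wild-type male pair. Fabp4, a fatty acid carrier, differed by -0.53, -1.08, -0.18 and -0.36. Dbp, an output gene of the circadian clock, was higher in all 4 pairs, by 0.75, 1.11, 0.25 and 0.12, against a median of 0.03 for the 17 clock genes.

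Cell cycle genes split evenly, with 10 of 21 higher and 11 lower, and only Bub1, a spindle checkpoint kinase gene, had an unadjusted p under 0.05, at -0.28 ± 0.11. The 21 sterol and fatty acid synthesis genes held none, with differences from -0.18 to 0.21, and neither did the 19 mitochondrial genes, of which 6 were higher and 12 lower. Of 16 contractile genes, 5 were higher and 11 lower. The mitochondrial and contractile lists thus held more lower than higher genes, as did all genes tested, of which 58.3% were lower. Cnn1, a smooth muscle calponin gene, averaged -0.36 ± 0.12. Psat1, an enzyme of serine synthesis, was lower in all 4 pairs, by -0.30, -0.37, -0.22 and -0.27, among 16 stress genes that were evenly divided. Of 13 mesenchymal marker genes, 5 were higher and 8 lower. Of 11 tested markers of other cell types, 9 were higher and 2 lower with a median of 0.08, against 41.0% higher over all genes. Thy1, a surface marker of mesenchymal cells, averaged 0.31 ± 0.10, and Pdgfra, a growth factor receptor of such cells, averaged 0.29 ± 0.10. Dcn and Lum, which encode the matrix proteoglycans decorin and lumican, averaged -0.18 and -0.14, with differences of -0.94 and -0.74 in the wild-type male pair and between -0.04 and 0.28 in the other 3 pairs. Ckm, the creatine kinase of muscle, stood at a dim 4.43 on thyroxine arrays and 3.96 on control arrays without overlap. The 7 cartilage and 7 osteoclast genes tested had no member with an unadjusted p under 0.05 in limma.

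At 3 days, the leading genes differed by less. The 12 higher genes had a median difference of 0.56 at 7 days and 0.31 at 3 days, and 10 of them were higher in all 4 pairs at 3 days too. The 12 lower genes had a median of -0.59 at 7 days and -0.08 at 3 days, and 1 of them, Il6, was lower in all 4 pairs at 3 days. The share of all genes with the same sign in all 4 pairs at 3 days was not counted. Both days come from the same 4 cultures, so the 3-day values are no independent replication. All 24 were larger in size at 7 days, the day at which they were chosen, so this count is a description. For Klf9 the 3-day differences were 0.58, 0.30, 0.34 and 0.41, and for Il6 -0.26, -0.16, -0.53 and -0.80. The test of the 7-day against the 3-day response called 0 of 13453 genes in limma (0.0%), with a smallest adjusted p of 0.980 and 550 genes at an unadjusted p under 0.05 (4.09%), 224 of them higher (1.67%) and 326 lower (2.42%) at 7 days. For Klf9 the 7-day minus 3-day difference was 0.30 ± 0.12, for Heg1 0.35 ± 0.12 and for Mrc1 -0.37 ± 0.13.

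**Figure D4:**
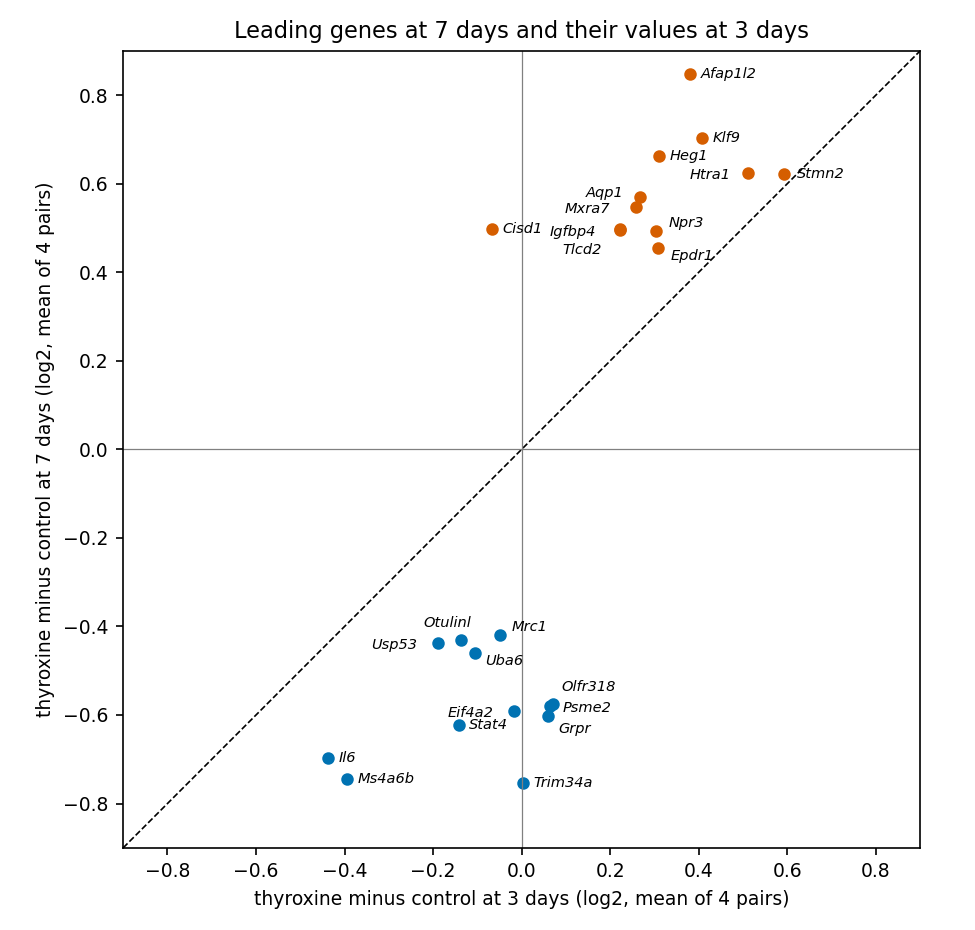
Mean thyroxine minus control difference of the 24 leading genes at 7 days against that at 3 days, both in log2 units over 4 pairs, with higher genes in orange, lower genes in blue and equality as a dashed line. Most higher genes lie between 0.2 and 0.6 at 3 days, Cisd1 lies near 0 there, and most lower genes lie near 0 at 3 days.

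The genes with the smallest p for the day difference are given as values. Cisd1 had differences of 0.33, 0.76, 0.37 and 0.53 at 7 days, against 0.20, -0.19, -0.09 and -0.19 at 3 days. Aldh1a1, a retinaldehyde dehydrogenase gene, averaged 0.41 at 7 days and -0.14 at 3 days, and Lce1h, a late cornified envelope gene, 0.83 and -0.64. Myl6, a myosin light chain gene, and Coa6, a cytochrome oxidase assembly factor gene, had day differences of 0.88 and 0.50. On the lower side, Tspan14, a tetraspanin gene, differed by -0.37, -0.14, -0.27 and -0.31 at 7 days, against 0.22, 0.24, 0.13 and 0.09 at 3 days, opposite in sign in all 4 cultures. Tlr8, an endosomal receptor of RNA, and Siglec1 had day differences of -0.58 and -0.61, and Cysltr1, a leukotriene receptor gene, one of -0.82. Rab4a, a small GTPase gene of endosomes, and Ikzf4, a zinc finger factor gene, had -0.97 and -0.70. The adjusted p was 0.980 for each of these genes.

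Whether the pooled pairs differed by genotype was tested with 2 pairs of each. When this fit was run on simulated data, 15 of its 86 calls were false, so its adjusted p may be too small. The test of the Twist1+/- against the wild-type response at 7 days called 26 of 13453 genes in limma (0.193%), with 24 higher (0.178%) and 2 lower (0.0149%). At an unadjusted p under 0.05 the test gave 1849 genes (13.7%), 590 higher (4.39%) and 1259 lower (9.36%), and with each array centred on its median the split was 886 higher and 810 lower. Of these 26, 14 were small RNAs, gene models or pseudogenes, 6 of them small nucleolar RNA genes. With any 1 of the 4 pairs left out, which leaves fewer degrees of freedom, 0 to 2 genes passed, and without the pair block 0 passed. None of the 24 leading genes was among the 26. Of the 26, 18 had both Twist1+/- pairs one way and both wild-type pairs the other way or at 0. Such genes, and the 14 small RNAs, gene models or pseudogenes, could not be leading genes, so the lack of overlap was largely set by the choice.

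**Figure D5:**
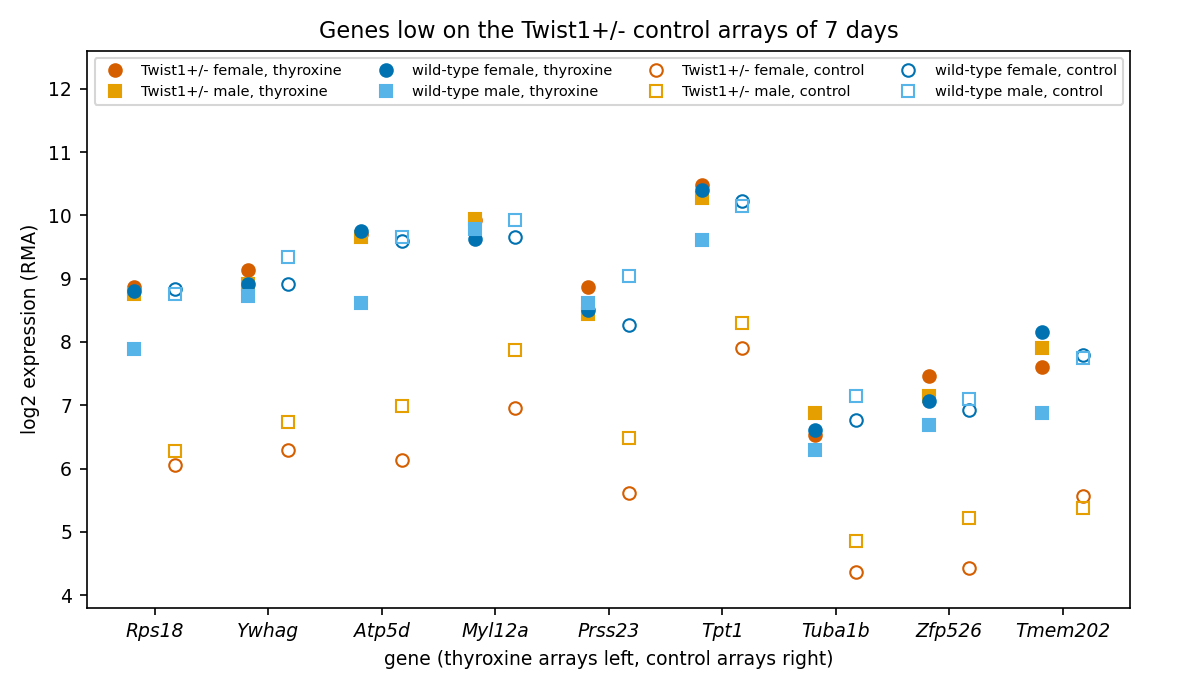
Level of 9 genes on each array at 7 days, as log2 expression, with thyroxine arrays as filled symbols on the left and control arrays as open symbols on the right. The open orange symbols, the Twist1+/- female and male control arrays, lie below all other arrays for each gene.

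Of the other 12 called genes, the 11 higher ones lay lower on both Twist1+/- control arrays than on the other 6 arrays of 7 days. With 1 pair left out, the differences of these 11 were between 0.762 and 1.24 times those from all pairs. The 11 were called from these same pairs, so this range is a description and no test of stability. Rps18, a ribosomal protein gene, stood at 8.87, 8.75, 8.81 and 7.89 on thyroxine arrays, against 6.05, 6.27, 8.83 and 8.76 on control arrays. Its response was 3.10 higher in Twist1+/- than in wild-type cells (SE 0.24, limma adjusted p 0.00112). The same held for Atp5d, an ATP synthase subunit gene, at 3.56, for Ywhag, a 14-3-3 protein gene, at 2.83, and for Myl12a, a myosin light chain gene, at 2.59. Tuba1b, a tubulin gene, was at 2.59 and Tpt1, which encodes a translationally controlled tumor protein, at 2.45. Prss23, a serine protease gene, Zfp526, a zinc finger gene, and Tmem202, a membrane protein gene, had 2.71, 2.61 and 2.54. S100a11, a calcium-binding protein gene, and Alox5, the leukotriene-forming lipoxygenase of myeloid cells, also passed and were picked out with their values known. S100a11 had 11.57, 11.43, 11.29 and 11.06 on thyroxine arrays, against 10.82, 10.33, 11.44 and 11.41 on control arrays, a Twist1+/- minus wild-type difference of 1.18 (limma adjusted p 0.00684). Alox5 stood at 7.27, 7.47, 6.89 and 6.18 with thyroxine, against 5.75, 5.82, 6.73 and 6.83 without it, a difference of 1.83 (limma adjusted p 0.0125). These values are from 1 of 2 Alox5 probe sets, and the other was not examined on its own. Over the 9 genes from Rps18 to Tmem202, which earlier results of these arrays had singled out, the pooled differences ran from 0.80 to 1.34 without passing the test (adjusted p 0.818). With both Twist1+/- pairs left out, all 9 were below 0, from -0.50 to -0.08. For 8 of the 9, the platform held 10 further probe sets. Of these, 3, of Rps18 and Tmem202, had a mean below the threshold of 3.905, where differences are compressed. Their mean Twist1+/- differences were -0.005 and 0.335 for Rps18 and -0.045 for Tmem202. The mean Twist1+/- difference of the 7 above the threshold lay between -0.16 and 1.46, against 2.28 to 3.12 for the probe sets used. The highest, at 1.46, was a second Ywhag probe set, and the next was at 0.29.

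Pbp2, a phosphatidylethanolamine-binding protein gene, went the other way, with 3.71, 3.57, 3.74 and 4.71 on thyroxine arrays, against 5.06, 4.67, 3.07 and 4.41 on control arrays. Its response was lower in Twist1+/- cells than in the wild type, with a difference of -1.71 (SE 0.28, limma adjusted p 0.0441). The other lower call was the pseudogene Rps12-ps24, named after its values were seen, at -3.03. Uqcrb, Slc38a6, Slc36a4, Cetn3 and Galnt18 came next on that side without passing, with adjusted p from 0.0565 to 0.0622. The 41 small nucleolar RNA genes named Snord that were tested had median differences of 0.35 and 0.31 in the Twist1+/- pairs and -0.10 and -0.87 in the wild-type pairs, a spread that the pooled median of -0.01 does not show. This group was singled out after its values were seen.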

How the data were processed

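RNA was measured in 16 samples on an Affymetrix whole-transcript array, with 100 ng of total RNA per array per the labels. Each deposited value is the log2 expression of a probe set. The authors made these with the RMA method of Affymetrix Expression Console, as the submitters' processing notes record. RMA sets all arrays to a common distribution, so that a shift common to all genes of an array would not appear, and differences of dim probe sets are compressed. The sources used here name no version, genome build or annotation release. The number of arrays limits the precision.

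Of 41345 probe sets, the platform annotation gave 1 symbol for 23521, several for 1814 and none for 16010. Genes were named from probe sets with 1 symbol. Of these, 23328 matched a current symbol through their Entrez identifier, with 0 changes. The brightest probe set of each of 22180 genes was used, and 13453 genes entered the tests, those with a mean of at least 3.905, which is percentile 40 of the probe sets with 1 symbol. Several members of the lists were not used here.

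The test was limma 3.58.1 under R 4.3.3 (lmFit, eBayes with an intensity trend, two-sided, Benjamini-Hochberg adjustment over all genes tested, threshold 0.05), with statmod 1.5.0 for robust moderation. The pooled fit used the 8 arrays of 7 days with the pair as a fixed block. The day difference used all 16 arrays with an effect per day, and the genotype difference the 8 arrays with an effect per genotype. The pairing comes from the labels, by which a plate held thyroxine and control wells of the same cells. Within pairs, deviations from the group means correlated across genes at 0.248, 0.408, 0.517 and 0.659, against -0.526 to 0.183 between arrays of different pairs. The deviations of a medium cancel out over its arrays, so positive values within pairs push those between pairs down. This contrast is therefore partly built in.

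Since no gene passed, the genes named were the 12 per direction with the smallest p and the same sign in 4 of 4 pairs, 6 per direction for the other contrasts, and up to 4 per list by size; 1 gene of the day contrast is not reported here. Gene models and small RNAs were left out of these. The members and lists were chosen with earlier results of these data known. Thra, Thrb and Twist1 were added to the rule's genes.

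Each fit was first tested on simulated data with 100 known changes of 0.5 and 100 of 1. The pooled fit recovered 74% of the smaller and 100% of the larger changes. The data simulated for it held no genotype difference in the thyroxine effect, and the noise of each gene was drawn on its own. In the real arrays such differences stay in the spread of the pooled fit, so its recovery there may be lower. The day fit recovered 26% and 95%, and the genotype fit 5% and 66%. False calls were 16 of 190, 13 of 134 and 15 of 86 in the same order. Each of these shares was above the one that the adjusted p threshold allows, and that of the genotype fit was the largest. The adjusted p of the genotype fit may therefore be too small, and some of its calls in the real arrays may be false. Since recovery of the smaller changes was partial, a gene left uncalled by any of these fits may still differ. Alternatives were the fit without the block, all 16 arrays, no trend, robust moderation, other filters, the mean of probe sets, centred arrays and left-out pairs. Promoter windows are from RefSeq (GRCm38.p6).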

Additional observations from a re-analysis of the deposited data

Results flagged for a closer look

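Within the thyroxine and control groups of 4 arrays, 48 groups of values of the leading genes were examined for an array far from the other 3, and 0 were found. The response at 7 days differed between the genotypes by a test of the difference itself for 13 named genes, in limma at an adjusted p under 0.05, as Twist1+/- minus wild-type differences. These were 3.10 for Rps18, 2.83 for Ywhag, 2.59 for Myl12a, 2.59 for Tuba1b, 2.45 for Tpt1, 3.56 for Atp5d, 2.71 for Prss23, 2.61 for Zfp526, 2.54 for Tmem202, 1.83 for Alox5 and 1.18 for S100a11 on the higher side. On the lower side they were -1.71 for Pbp2 and -3.03 for the pseudogene Rps12-ps24. In simulated data 15 of 86 calls of this test were false, a larger share than its threshold allows, so some of these genes may be false calls. All 11 on the higher side lay lower on both Twist1+/- control arrays than on the other 6 arrays of 7 days. Where further probe sets above the threshold of 3.905 were examined, their mean Twist1+/- differences were -0.16 to 1.46, against 2.28 to 3.12 for those used. Without each pair in turn, 0 to 2 genes passed this test. For the first 6, the mean differences were 2.10 to 3.12 in the Twist1+/- pairs and -0.50 to -0.08 in the wild-type pairs.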

How the results depend on the processing

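Over 83 genes named for the pooled response and all alternatives, 1091 of 1146 recomputed values kept their direction and side of the threshold, 27 passed it in addition and 28 changed sign or came to 0. Since none of these genes passed with all 4 pairs and the block, no call could be lost. The pooled count of 0 genes became 21 with all 16 arrays in a fit, of which 10 were leading genes and 9 were low on both Twist1+/- control arrays. It became 2 with robust moderation and 15 without both wild-type pairs of 7 days, an alternative chosen after seeing the data, of which 0 were leading genes. It was 0 without each pair in turn, with 436 to 1659 genes at an unadjusted p under 0.05, and 0 without both Twist1+/- pairs (514). With no replicate block, which sets the pairing aside, it was 0 (256 unadjusted, against 786 with the block). The day difference count of 0 became 1 with all 16 arrays and an effect per genotype, and 32 without both wild-type pairs of 7 days. The genotype count of 26 became 0 with no replicate block, 0 without the intensity trend, 16 with robust moderation, 54 with the mean of probe sets, and 0 to 2 without each pair in turn. With the 60th percentile filter it was 33, and with no filter 19. Of 214 values for 18 genes named for the genotype difference, 88 no longer passed, 10 passed in addition and 0 changed sign, and all 163 values for the 12 genes chosen for the day difference kept direction and side. The causes were not tested.

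Without both Twist1+/- pairs the pooled difference turned to -0.45 for Rps18, -0.31 for Ywhag, -0.44 for Atp5d, -0.08 for Myl12a, -0.10 for Prss23, -0.18 for Tpt1, -0.50 for Tuba1b, -0.13 for Zfp526, -0.26 for Tmem202, -0.10 for Twist2, -0.015 for Col1a1 and -0.025 for Thra. Without both wild-type pairs it turned to -0.09 for Thrb, 0.12 for Twist1, 0.065 for Lum and 0.23 for Ifit1. Hif1a turned to 0.034 with the mean of probe sets, and Twist1 to 0.005 with centred arrays. Without each pair in turn, Thra ran from -0.043 to 0.093, Thrb ran from -0.01 to 0.25, Twist1 ran from -0.22 to 0.10, Col1a1 ran from -0.013 to 0.03, Dcn ran from -0.34 to 0.07, Lum ran from -0.23 to 0.057 and Ifit1 ran from -0.48 to 0.13. Dim genes such as Grpr, Olfr318, Hr and Dio1 lie near the background, where differences are compressed.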
